A study of Mus musculus with 16 samples.

Results

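The assembled mouse chromosome ends carried 1472 of the 510542 regions that any of 16 ATAC-seq libraries called open on the autosomes. ATAC-seq marks open chromatin with a transposase that inserts sequencing adapters where DNA is exposed, and a peak is a stretch where the sequenced fragments pile up. The autosomal peaks of all 16 libraries were merged wherever they shared at least 1 base. A merged region was kept when its midpoint lay below 3.3 Mb, which gave 818 regions on the centromere side, or within 300 kb of the chromosome's last base in GRCm38, which gave 654 regions on the distal telomere side. A library is said to hold a region when at least 1 of its peaks lies in it. These windows held 5.236 Mb and 3.634 Mb of assembled sequence, since the reference leaves the outermost bases of each chromosome as a gap of unknown sequence, and the assembled part starts between base 3000001 and base 3100001.

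The study asked how loss of the pyruvate dehydrogenase complex, which turns pyruvate into acetyl-CoA, affects memory T cells. CD8+ T cells were differentiated in culture into effector cells (TE, with IL-2) or memory cells (TM, with IL-15), and came from wild-type mice (WT, genotype TPdh+/+) or from TPdh-/- mice, giving 4 groups of 4 libraries. In the TPdh-/- mice a loxP-flanked Pdha1, the X-linked gene of the E1 alpha subunit, was deleted in T cells by a CD4-cre transgene, so the deletion starts in thymocytes that express CD4 and reaches CD4+ and CD8+ T cells alike. Per the study's methods, OT-I cells, whose receptor is a transgene specific for an ovalbumin peptide, were activated with that peptide and then given the cytokine, and young adult mice of both sexes were used. The labels do not say which libraries came from separate mice or cultures, so p-values measure only the spread between these samples. The deletion itself was not checked here, because a peak list does not show the loss of an exon.

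As background, mouse autosomes have their centromere next to an end. The short arm carries almost no genes and gives way to minor satellite DNA, where the kinetochore forms and CENP-B binds its box, and to the longer arrays of A+T-rich major satellite, which are packed as pericentromeric heterochromatin marked by methylated histone H3. The opposite, distal end finishes in tandem copies of TTAGGG, which telomerase adds and the shelterin complex binds. Most copies of these repeats are missing from the reference, so the assembled edge of a chromosome holds at most a part of each array. A fragment from any unassembled copy can be placed on the few assembled copies, and the number of fragments over such a place then counts many copies together. The authors removed reads for which the aligner listed other placements and reads in blacklisted regions. Whether the remaining pile-ups at repeats hold fragments of other copies was not tested.

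Repeat sequences at the 2 sides are shown first because they made up many of the regions that libraries shared. All are the + strand of GRCm38 around the summit, the base with the highest pile-up, of a region held by many libraries.

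The distal edge of chromosome 4 is shown because it was held by all 16 libraries without a TTAGGG unit. Capitals mark a single 24-base repeat.
Chromosome 4 distal edge, chr4:156356885-156357004: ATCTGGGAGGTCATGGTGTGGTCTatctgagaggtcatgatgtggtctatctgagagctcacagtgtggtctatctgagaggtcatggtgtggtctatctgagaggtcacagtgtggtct
On the centromere side, the chromosome 9 sequence is shown because it gave the deepest pile-ups of all regions at the ends. In its 234 bases, capitals mark each base that is the same 234 bases further on, which was 93.2% of them. In the other sequences of this set capitals mark a single period of the tandem repeat, of 21 bases on chromosome 17 and 19 bases on chromosome 10.
Chromosome 9 centromere side, chr9:3024339-3024572: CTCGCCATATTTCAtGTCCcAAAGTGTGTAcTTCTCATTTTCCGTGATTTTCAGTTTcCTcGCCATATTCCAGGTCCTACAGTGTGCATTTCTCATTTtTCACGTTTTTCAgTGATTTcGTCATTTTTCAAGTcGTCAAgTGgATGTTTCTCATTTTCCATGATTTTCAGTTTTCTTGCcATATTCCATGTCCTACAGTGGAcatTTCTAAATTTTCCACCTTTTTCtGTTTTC
Chromosome 17 centromere side, chr17:3029889-3029993: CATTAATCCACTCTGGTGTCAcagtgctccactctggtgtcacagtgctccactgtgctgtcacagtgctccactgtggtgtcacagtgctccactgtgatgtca
Chromosome 10 centromere side, chr10:3112824-3112937: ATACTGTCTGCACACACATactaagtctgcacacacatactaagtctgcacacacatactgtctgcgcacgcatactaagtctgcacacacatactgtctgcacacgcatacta
As background, 234 bases is the unit length of mouse major satellite. The sequence was not aligned to a satellite reference here.

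For comparison, the next sequences are the 100 bases before the annotated start of a gene on each side, with CG dinucleotides in capitals. They are shown as gene promoters that many libraries shared.
Scaf8, centromere side, chr17:3114872-3114971: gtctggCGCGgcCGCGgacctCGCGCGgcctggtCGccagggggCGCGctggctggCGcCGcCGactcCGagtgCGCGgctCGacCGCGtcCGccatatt
B230307C23Rik, distal side, chr16:97997215-97997314: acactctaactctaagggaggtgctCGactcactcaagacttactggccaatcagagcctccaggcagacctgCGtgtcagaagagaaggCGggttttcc
The Scaf8 stretch held 20 CG and the B230307C23Rik stretch held 3, beside a median of 4 over the same stretch of all protein-coding promoters.

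The 16 libraries differed widely in how many peaks they gave, and the WT TE libraries stood apart. Their autosomal lists held 2270 to 18783 peaks, while the lists of the other 12 libraries held 13039 to 84359. Read totals were not analysed here, so depth was read from the background coverage, taken as the lowest local background that MACS2 set for any peak of the library, in fragments per base. It was 0.636 to 1.55 in WT TE and 0.173 to 0.572 in the other groups, so the shortest lists came with the highest background. The labelled cell type could not be checked well against these lists. The 8 markers of CD8+ T cells had a peak within 5000 bp in 4 to 14 libraries (median 6), with no WT TE library among those for Cd3e, Cd3g, Thy1 and Cd2, and the 8 markers of other cell types did in 2 to 11 libraries (median 6).

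Most regions at the ends were seen once, and a small set was seen almost everywhere. On the centromere side 649 regions (79.34%) came from 1 library alone, as did 552 distal regions (84.4%), beside 86.74% over the rest of the autosomes. At the other extreme, 48 centromere-side regions (5.868%) and 23 distal regions (3.517%) were held by 8 or more libraries, where the rest of the autosomes had 2319 of 509070 (0.4555%). Only 48 regions of all autosomes were held by all 16 libraries, and 20 of them lay at the ends, 15 on the centromere side and 5 on the distal side. The regions had median lengths of 216 bp and 226.5 bp, close to the 209 bp of the rest.

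The shared regions at the ends did not look like the shared regions elsewhere. Away from the ends, 86.33% of the regions held by 8 or more libraries had their summit within 1000 bp of an annotated gene start, and 8.495% were at least 50% repeat-masked. On the centromere side 18 of the 48 (37.5%) lay at a start and 34 (70.83%) were at least 50% masked. On the distal side the figures were 12 of 23 (52.17%) and 9 of 23 (39.13%). Their median GC content was 46.25% and 52.5%, below the 64.5% of the shared regions elsewhere. In the whole set held by any number of libraries, the ends and the rest were closer, with 11.61%, 11.77% and 8.29% at a gene start.

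Tandem repeats made up most of the shared centromere-side regions and promoters most of the shared distal ones. Of the 48, 27 had a tandem period with at least 50% identity from copy to copy, 7 had no such period and a gene start within 1 kb, and 14 had neither. Of the 23, 7 were arrays of TTAGGG, 1 had another period, 12 were promoters and 3 had neither. The 12 distal promoters lay on 8 autosomes, and none of them was held by all 16 libraries. At least 2 TTAGGG units in the 200 bases at the summit, on either strand, were found in 15 distal regions (2.294%), no centromere-side region and 126 of all regions (0.02468%). The CENP-B box, searched by its 9 conserved bases on both strands of the same 200 bases, was found in 33 of all regions (0.006464%) and in none at the ends.

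The share of regions held by many libraries was highest at the assembled edge. Within 2 kb of it on the distal side there were 15 regions on 14 autosomes, of which 8 (53.33%) were held by 8 or more libraries. From 2 to 10 kb none of 18 was, from 10 to 50 kb 3 of 122 (2.459%), from 50 to 100 kb 8 of 168 (4.762%) and from 100 to 200 kb 4 of 331 (1.208%). The other 15 of the 23 thus lay more than 10 kb from the edge. On the centromere side the decline was slower, with 4 of 9 (44.44%) within 2 kb, 8 of 30 (26.67%) from 2 to 10 kb, 23 of 105 (21.9%) from 10 to 50 kb and 5 of 119 (4.202%) from 50 to 100 kb. Regions of any kind were less steeply placed on the centromere side, at 236.8 per Mb in the outermost 2 kb, 125.3 per Mb from 50 to 100 kb and 187.6 per Mb from 200 to 300 kb. On the distal side they numbered 394.7 per Mb in the outermost 2 kb and 118.5 per Mb from 2 to 10 kb.

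**Figure D1:**
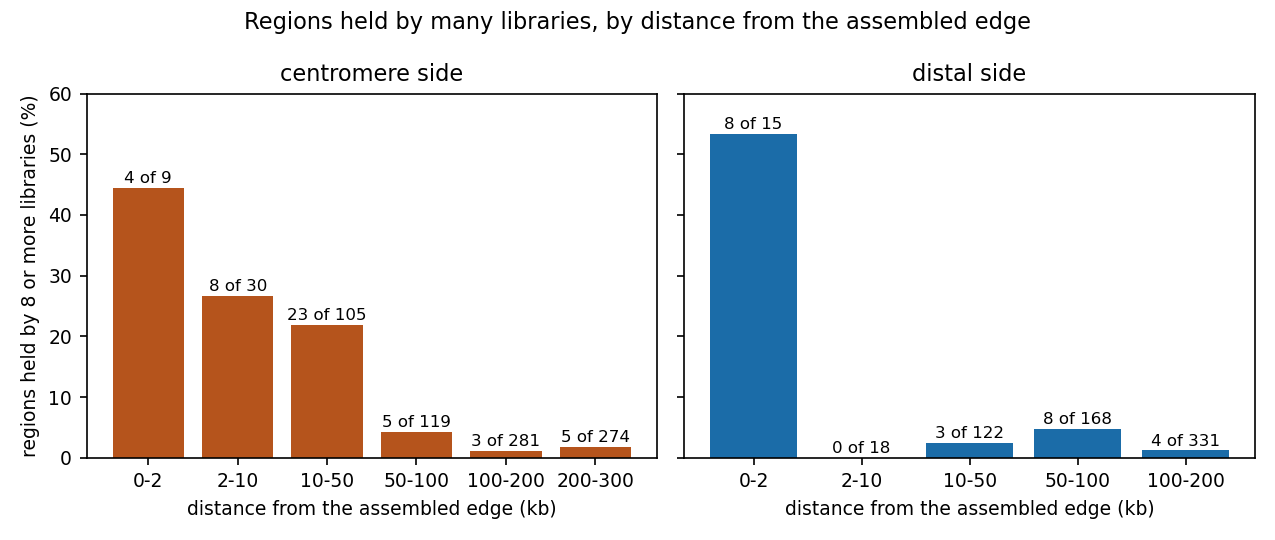
Share of regions held by 8 or more libraries (vertical axis, %) in bins of distance from the assembled edge (kb) on the centromere side (left) and the distal side (right), with the counts above each bar. The distal share drops from 53.33% in the outermost 2 kb to 0 of 18 in the next bin, and the centromere-side share stays above 20% up to 50 kb.

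Individual chromosomes differed more than the 2 sides did. Chromosome 11 had the most centromere-side regions, 82 in 200 kb, and chromosome 14 the fewest, 11 in 300 kb. Of the 48 shared regions, 13 lay on chromosome 9, 12 on chromosome 11 and 7 on chromosome 17, and 9 autosomes had none. On the distal side chromosome 7 had 71 regions, none of them held by 8 libraries, and chromosome 13 had 4. The map of positions shows the outermost distal dots of chromosomes 2, 4, 10, 12 and 14 at the darkest shade, and on the centromere side the dense run of dark dots on chromosome 9.

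**Figure D2:**
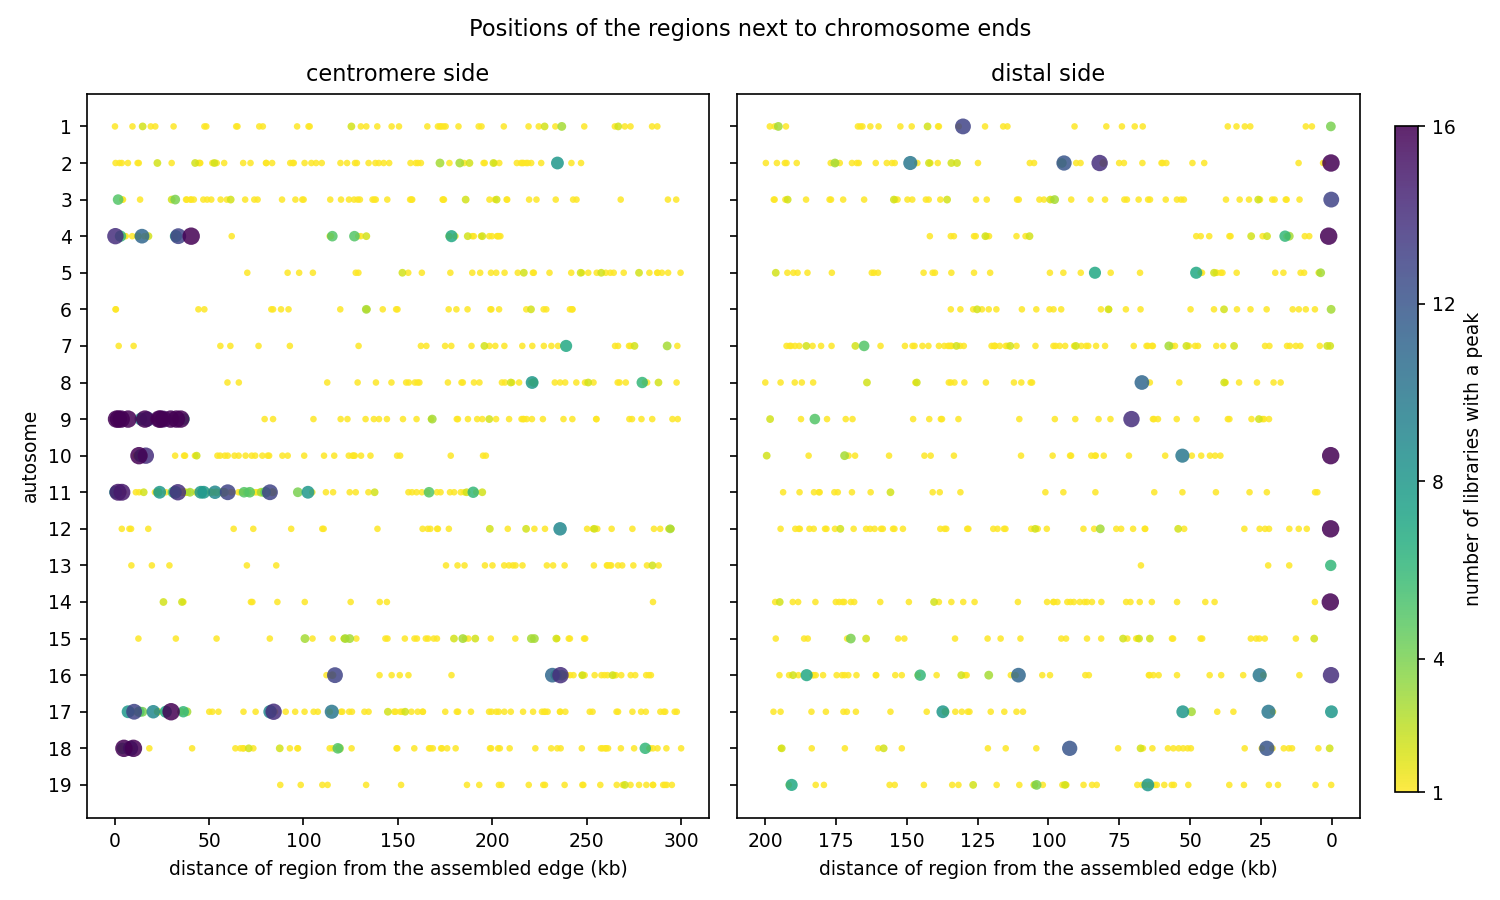
Each dot is a region, placed by its distance from the assembled edge (horizontal axis, kb) on its autosome (vertical axis), with darker and larger dots held by more of the 16 libraries. Dark dots sit at the outer edge of the distal side on 8 autosomes and in the first 50 kb of the centromere side on chromosomes 4, 9, 10, 11, 17 and 18.

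Not every edge that carries TTAGGG units in the reference was held. On 14 autosomes the last 2 kb held 22 to 115 TTAGGG units, 12 of these had a region there and 7 had a region held by 8 or more libraries. On the other 5 autosomes, with at most 15 units, 2 had a region there and 1, chromosome 4, had a shared region. Chromosome 14 with 115 units and chromosome 2 with 91 were seen in all 16 libraries, whereas chromosome 7 with 89 units and chromosome 18 with 87 had no region there held by more than 2 libraries. Chromosome 19, with 48 units, was seen in 1 library and chromosome 11, with 35, in none.

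The TTAGGG array at the edge of chromosome 12 (chr12:120028298-120028985, between genes, 55 units) had the highest fold enrichment of the distal side. Fold enrichment, as deposited, divides the fragments over the summit plus 1 by the local background plus 1. It was 41.9, 49.4, 31.6 and 36.5 in WT TE, 42.0, 34.8, 50.2 and 47.6 in TPdh-/- TE, 52.0, 47.1, 58.9 and 42.0 in WT TM, and 49.6, 35.0, 40.8 and 36.2 in TPdh-/- TM. All groups overlapped. The array on chromosome 10 (chr10:130594292-130594991, between genes, 62 units) gave much the same levels, 37.4, 49.0, 19.8 and 31.4 in WT TE, 39.2, 41.5, 52.2 and 50.3 in TPdh-/- TE, 52.8, 45.5, 52.6 and 40.6 in WT TM, and 54.8, 42.1, 40.2 and 41.1 in TPdh-/- TM. WT TE 3, the library with the shortest list, was the lowest at both edges.

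Lower fold enrichment was found at the edge of chromosome 14 (chr14:124801549-124801951, 65 units), from 8.26 in WT TE 3 to 34.3 in WT TM 1 with a median of 26.3. The 24-base repeat of chromosome 4 (chr4:156356797-156357300) had 10.2, 12.8, 8.67 and 12 in WT TE, 9.92, 5.80, 10.8 and 13.6 in TPdh-/- TE, 13.1, 14.3, 16.9 and 13.7 in WT TM, and 12.6, 13.9, 10.7 and 9.34 in TPdh-/- TM. There the WT TM values lay above those of WT TE, and the other compared groups overlapped. Both lie between genes. Next in number of libraries were the arrays of chromosome 16 (chr16:98107275-98107770, 43 units), held by 14 libraries at 12.9 to 37.8, and of chromosome 3 (chr3:159939357-159939686, 45 units), held by 13 libraries at 10.2 to 20.8. The shortest shared array, on chromosome 17 (chr17:94887093-94887269, 21 units), was held by none of the 4 WT TE libraries and by 2, 3 and 3 of the other groups.

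**Figure D3:**
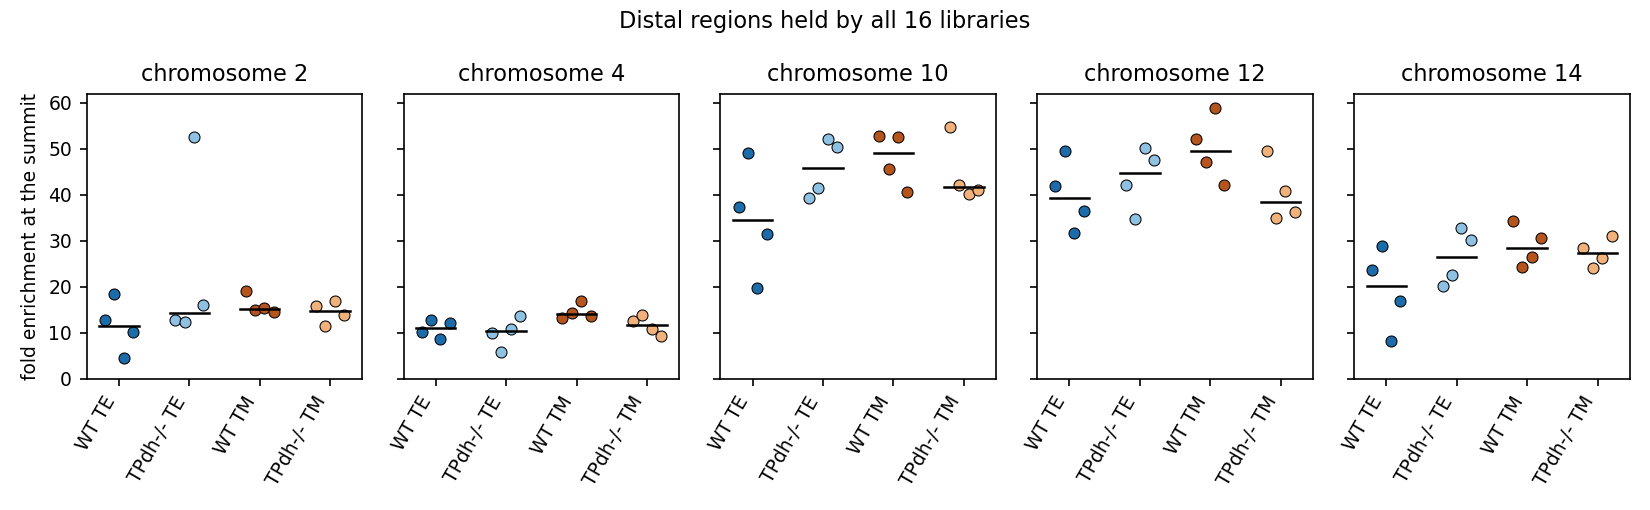
Fold enrichment at the summit (vertical axis, ratio) in each library of the 4 groups (horizontal axis) for the 5 distal regions held by all 16 libraries, with the bar at the group median. The compared groups overlap in every panel except WT TM (13.1 to 16.9) and WT TE (8.67 to 12.8) on chromosome 4, and a single TPdh-/- TE library at 52.6 stands above all others on chromosome 2.

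Chromosome 2 (chr2:182012723-182013227, between genes, 81 units) had a library that stood far from the rest. Its summit pile-up, the number of fragments over the summit base, was 561 in TPdh-/- TE 3 and 10 to 69 in the other 15 libraries, and its fold enrichment was 52.6 there against 4.54 to 19 elsewhere. In that library the summit lay 399 bp from the last assembled base, and in 11 other libraries it lay 399 to 411 bp from it. In fragments, which are not scaled for depth, the same library was within the range of the others at chromosome 12 (225, range 66 to 280). The same held at chromosome 10 (336, range 47 to 405). On the level scale given further on, it was the highest of its group at every distal region held by all libraries. Its levels were 2.477 on chromosome 12, 3.055 on chromosome 10 and 3.795 on chromosome 2. The cause was not tested.

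On the centromere side, the outermost 36.5 kb of chromosome 9 (chr9:3000511-3036965) formed a run of 19 regions, of which 13 were held by 8 or more libraries and 10 by all 16. Of the 19, 16 had a period of 234 bases, and their GC content was 34% to 37.3%. The next region lay 42.3 kb away, and none of the other 37 regions on this side of the chromosome was held by 8 libraries. The annotation places the long non-coding RNA gene Gm26870 across the run, with the predicted protein-coding genes Gm10722, Gm11168, Gm10721, Gm10720, Gm10719, Gm10718, Gm10717 and Gm17535 inside it and Gm10715 at its inner edge. Among the named regions of the run with that period, 58.4% to 82.8% of bases were the same a period further on. Which copy a fragment came from is uncertain.

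The deepest pile-up at the ends was at chr9:3024040-3024654, in an exon of Gm10718. The fragments over its summit numbered 3784, 3487, 3511 and 4719 in WT TE, 2672, 1230, 2276 and 4643 in TPdh-/- TE, 3374, 2554, 4188 and 4222 in WT TM, and 2644, 2724, 3117 and 2757 in TPdh-/- TM. The fold enrichment there was only 25.0 to 41.2, since the local background was high as well. It was 27.4, 29.4, 25.0 and 26.6 in WT TE, 31.0, 41.2, 31.9 and 30.0 in TPdh-/- TE, 31.9, 31.8, 31.8 and 29.5 in WT TM, and 36.3, 32.0, 29.5 and 29.7 in TPdh-/- TM. The 4 WT TE values were the lowest of the 16, with 29.4 in WT TE 2 next to 29.5 in WT TM 4 and TPdh-/- TM 3.

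Other regions of the run followed at lower levels. At chr9:3001714-3002342, in an exon of Gm10722, the fold enrichment was 17.5 to 37.3 with 423 to 2231 fragments. At chr9:3006437-3007837, in an exon of Gm11168, it was 18.4 to 26.5 with 378 to 1954 fragments. At chr9:3023412-3023725, with its summit 23 bp from the start of Gm10718, it was 10.7 to 26.1 with 460 to 2971 fragments. The remaining all-library regions named by the same rule were chr9:3003326-3003675 (6.56 to 10.4), chr9:3015927-3016177 (9.37 to 23.5), chr9:3029457-3029919 (7.52 to 19.7), chr9:3000511-3001527 (2.72 to 6.63) and chr9:3032553-3032953 (3.13 to 12.6). The group medians of the last of these were 6.71 in WT TE, 9.03 in TPdh-/- TE, 7.1 in WT TM and 12 in TPdh-/- TM.

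Regions with a 21-base period lay on 3 chromosomes, whose sequences were not compared with each other. The only such region held by all libraries was chr17:3029702-3030135, between genes, with a fold enrichment of 13.9, 16.4, 15.7 and 15.4 in WT TE, 16.2, 15.3, 16.5 and 16.6 in TPdh-/- TE, 17, 18.9, 16.5 and 13.7 in WT TM, and 10.9, 14.4, 14 and 11.3 in TPdh-/- TM. The TPdh-/- TM values lay below those of TPdh-/- TE and overlapped those of both WT groups. With fold enrichment as the level in the limma test of all-library regions given further on, no region at the ends passed in any comparison. The same period was found in 3 further shared regions on chromosome 17, 3 on chromosome 4 and 2 on chromosome 16, held by 8 to 14 libraries. The 19-base repeat of chromosome 10 (chr10:3112688-3113125) was held by all 16 libraries at 3.20 to 9.53, and a region on chromosome 4 (chr4:3089534-3091568) at 6.32 to 10.9.

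The centromere-side windows touch 37 annotated protein-coding genes, 35 of them with a start inside, and 21 of the 35 (60%) had a peak within 1 kb of a start in at least 1 library, as had 31 of 51 (60.8%) on the distal side and 77.0% of the 20807 of all autosomes. A peak in 8 or more libraries was found for 13 (37.1%) and 10 (19.6%), against 15.3% of all. Of the 13, 8 were the repeat genes of chromosome 9. The other 5 were Sfi1, a centrin-binding protein of the centriole, in 16 libraries over several starts, Scaf8, which binds the tail of RNA polymerase II, in 11, Eif4enif1, a carrier of the cap-binding factor eIF4E, in 9, and Nmt2, an N-myristoyltransferase, and Insr, the insulin receptor, in 8 each. Crem, a cAMP-responsive regulator, Patz1, a zinc-finger factor, Drg1, a GTP-binding protein, and Selenop, a selenium carrier, had a peak in 6 libraries each. No library had a peak at the start of Xkr4, Nlrp12, H60c or the vomeronasal receptor genes Vmn1r2, Vmn1r3 and Vmn1r238.

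At the distal side the 10 were Ppp2r3d, a regulatory subunit of protein phosphatase 2A, in 14 libraries, Tmx3, a thioredoxin-related protein of the endoplasmic reticulum, and Gm45871 in 12, 2610044O15Rik8 and B230307C23Rik in 11, C2cd2, A630089N07Rik and Polr3k, a subunit of RNA polymerase III, in 10, and Mettl4, a methyltransferase, and the zinc-finger gene Zfp950 in 8. Rfc3, of the clamp loader for DNA replication, and Zbtb21 had a peak in 7. The vomeronasal genes Vmn2r85, Vmn2r86 and Vmn2r18, the mucin-like genes Mucl1 and Mucl2 and the sensory receptor gene Mrgprd had none. At Ppp2r3d (chr9:124422628-124426197, spanning exon and start) the 14 libraries had 5 to 18 fragments at the summit and a fold enrichment of 4.30 to 8.23, and at Scaf8 (chr17:3114412-3115604) 10 libraries had 4 to 17 fragments and 4.13 to 7.13. The region at Nmt2 (chr2:3283645-3285289) had 3.65 to 9.57 in 8 libraries, one in an intron of Insr (chr8:3220629-3221483) 4.30 to 9.44 in 8, and the one at Polr3k (chr2:181863803-181865042) 3.28 to 7.77 in 10. The remaining distal regions named were chr2:181930933-181931642, between genes in 14 libraries with 8.83 to 21.1, and chr1:195241460-195242070, 841 bp from Gm27940, in 13 libraries with 3.46 to 15.9.

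The shared regions took a different part of each library's peaks at the ends. Of the 48 centromere-side regions a library held 35 to 45 in WT TE, 24 to 46 in TPdh-/- TE, 33 to 42 in WT TM and 34 to 39 in TPdh-/- TM. They made up 60.8 to 85.4% of the centromere-side regions that a WT TE library held, 23.3 to 43.8% in TPdh-/- TE, 38.1 to 54.8% in WT TM and 20.3 to 27.5% in TPdh-/- TM. Of the 23 distal regions a library held 13 to 21, 10 to 19, 11 to 22 and 20 to 23 in the same order of groups. On the centromere side the short WT TE lists thus held about as many of the shared regions as the long lists did and far fewer of the others. On the distal side the WT TE lists held fewer of the shared regions (13 to 21) than most of the TPdh-/- TM lists (20 to 23). Single promoters could go the other way, and the one at Mettl4 was held by 4 WT TE libraries and by 1, 1 and 2 of the other groups.

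Merged over the 16 libraries, regions were less dense at the ends, at 156.2 per assembled Mb on the centromere side and 180.0 per Mb on the distal side beside 213.3 per Mb over the rest. Within single libraries the peaks were on average denser there, by an amount that differed between the groups. Counted per assembled Mb within each library, the centromere side had 1.633 times the density of the rest (mean log2 ratio 0.71 ± 0.96, SD, n = 16 libraries, above 0 in 14, exact sign-flip permutation test over libraries, two-sided p = 0.000305). The distal side had 1.337 times (mean log2 ratio 0.42 ± 0.67, SD, n = 16, above 0 in 12, same exact test, p = 0.0033). With windows of 1 Mb the centromere-side log2 ratio was 0.28 and no longer passed 0.05 (exact permutation p = 0.0605). The WT TE libraries carried much of this, with 4.125 and 2.616 times, while the other groups were at 1.021 to 1.497 and 0.9833 to 1.13 times. Over the 12 libraries outside WT TE the centromere side was at 1.199 times (10 above, exact permutation p = 0.00488) and the distal side at 1.069 times (8 above, exact permutation p = 0.0527), so the distal excess no longer passed 0.05. When each list was shortened to its 2270 most significant peaks, the length of the shortest list, the mean log2 ratios rose to 2.72 and 2.21 over the 16 libraries.

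The distal peaks were on average stronger than others of the same library. Their median fold enrichment exceeded that of the other autosomal peaks by 0.23 ± 0.24 on the log2 scale (SD, n = 16, higher in 14 libraries and lower in none, exact sign-flip permutation p = 0.000122). By group it was 0.37 in WT TE, 0.14 in TPdh-/- TE, 0.41 in WT TM and 0.01 in TPdh-/- TM. On the centromere side the difference was 0.03 ± 0.09 (higher in 9 and lower in 4, exact permutation p = 0.159). Without chromosome 11, which has the most regions there, it was 0.11 and passed (exact permutation p = 0.000122). It was below 0 in all 4 WT TE libraries, and over the 12 others it was 0.06, above 0 in 9 and below in none (exact permutation p = 0.00391).

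The share of a library's peaks that lay at the ends was the first measure compared between groups. On the centromere side it was 0.761, 0.410, 1.94 and 1.009% in WT TE, 0.235, 0.261, 0.237 and 0.251% in TPdh-/- TE, 0.211, 0.337, 0.522 and 0.301% in WT TM, and 0.229, 0.207, 0.228 and 0.226% in TPdh-/- TM. The WT TE libraries were all above the TPdh-/- TE libraries. The 95% exact binomial intervals of single libraries, which cover counting error only, ran from 0.178 to 0.241% in the longest list and from 1.41 to 2.59% in the shortest. On the distal side the share was 0.340, 0.213, 0.661 and 0.457% in WT TE, 0.149, 0.134, 0.142 and 0.169% in TPdh-/- TE, 0.179, 0.171, 0.176 and 0.152% in WT TM, and 0.163, 0.147, 0.190 and 0.167% in TPdh-/- TM. The WT TE libraries lay above the other 12.

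**Figure D4:**
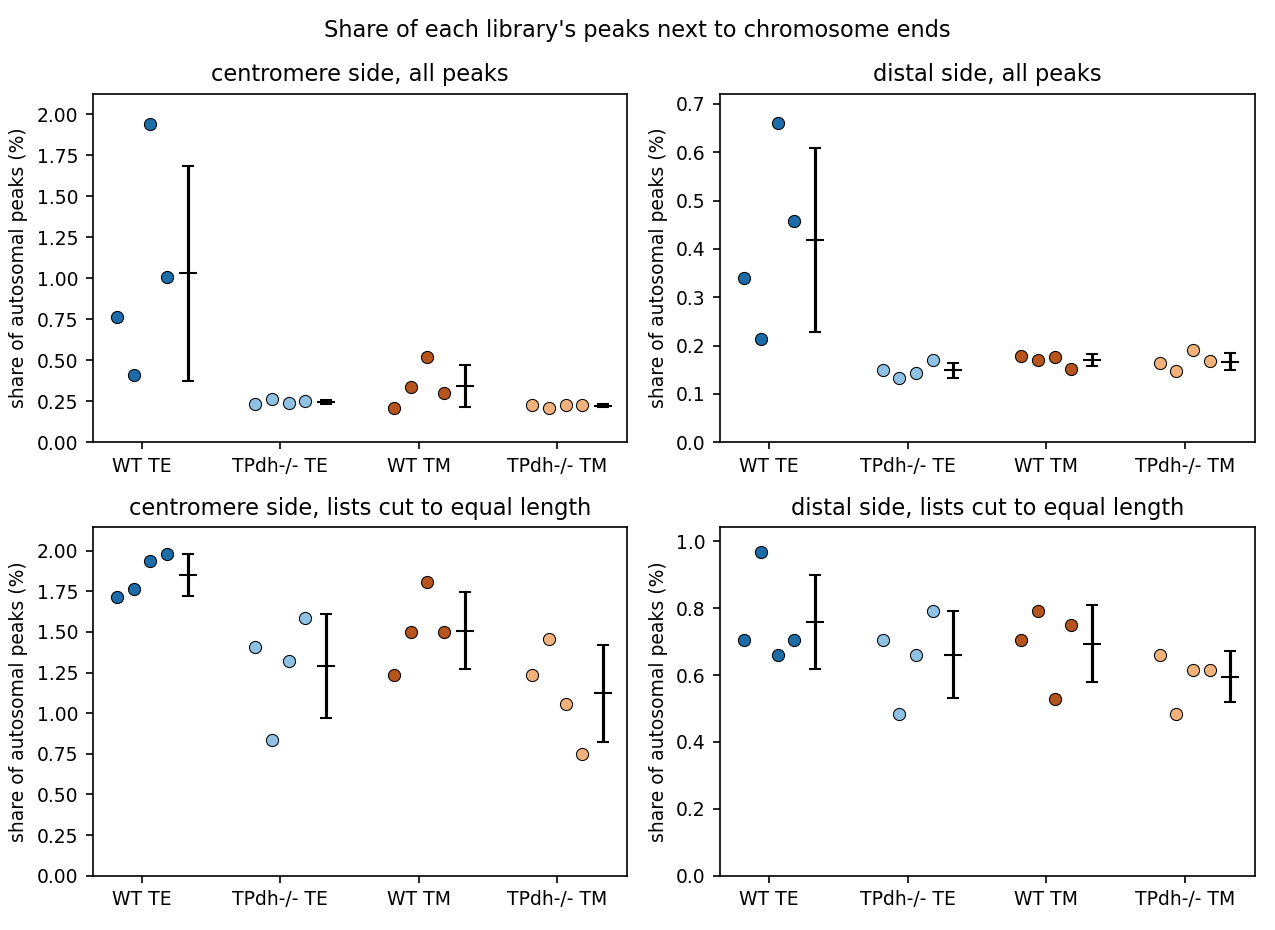
Share of autosomal peaks at the centromere side (left) and the distal side (right) in each library, with the group mean and SD as black bars, for all peaks (top) and for lists shortened to 2270 peaks each (bottom). In the top panels WT TE lies above TPdh-/- TE without overlap, and in the bottom right panel every compared pair of groups overlaps.

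None of the 8 comparisons of shares, 4 on each side, passed 0.05 after adjustment over the 8. With 4 libraries against 4 the exact permutation test cannot go below p = 0.0286. Each group enters 2 comparisons, so the comparisons share libraries. TPdh-/- TE had a mean share of 0.246 ± 0.0126% against 1.03 ± 0.654% in WT TE on the centromere side (SD, n = 4 each, exact permutation p = 0.0286, adjusted 0.0571), and 0.149 ± 0.0150% against 0.418 ± 0.190% on the distal side (p = 0.0286 by the same exact test, adjusted 0.0571). WT TM, at 0.342 ± 0.131% and 0.169 ± 0.0123%, differed from WT TE with exact permutation p = 0.0571 and 0.0286 (adjusted 0.0914 and 0.0571). TPdh-/- TM, at 0.223 ± 0.0101%, lay below TPdh-/- TE in all 4 libraries on the centromere side (exact permutation p = 0.0286, adjusted 0.0571), and on the distal side the exact p was 0.229. WT TE 3, at 1.94%, raised the centromere-side mean of WT TE, and without it the difference of TPdh-/- TE from WT TE was −0.481 points in place of −0.784 and that of WT TM −0.384 in place of −0.687. TPdh-/- TM against WT TM gave exact permutation p = 0.114 on the centromere side and 0.83 on the distal side. The centromere-side difference was −0.120 points, or −0.0601 points without WT TM 3.

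In the lists shortened to 2270 peaks, the centromere-side means were 1.85% in WT TE, 1.29% in TPdh-/- TE, 1.51% in WT TM and 1.12% in TPdh-/- TM, and TPdh-/- TE against WT TE kept exact permutation p = 0.0286. In points, the differences from WT TE were smaller than in the full lists on both sides. The differences of TPdh-/- TM from WT TM and from TPdh-/- TE were larger in points, the distal one from TPdh-/- TE with its sign turned. The shares themselves were higher in the shortened lists, as in WT TM on the centromere side (1.51% against 0.342%), so points of the 2 kinds of list are not on 1 scale. The distal means were 0.760, 0.661, 0.694 and 0.595% in the same order, with exact permutation p of 0.257 to 0.6 in the 4 comparisons. The lists also differed in how deep a peak had to be. No peak at the ends of a WT TE library had 4 or fewer fragments at its summit, against 31.13% (centromere side) and 37.04% (distal side) in TPdh-/- TE, 11.85% and 16.11% in WT TM, and 42.83% and 55.48% in TPdh-/- TM. With background coverage as a covariate the difference between TPdh-/- TE and WT TE turned positive, at 0.0914 points on the centromere side and 0.0423 points on the distal side. It also turned WT TM against WT TE on both sides (0.327 and 0.0499 points) and TPdh-/- TM against WT TM on the centromere side (0.0950 points). Genotype and depth cannot be told apart for these shares.

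The genotype difference in the share was larger in TE than in TM. The TM difference minus the TE difference was 0.664 points on the centromere side (permutation of genotype within cell type, exact over 4900 arrangements, p = 0.0208) and 0.2665 points on the distal side (same exact permutation, p = 0.00408). Without any of the 4 TPdh-/- TE libraries in turn the centromere-side exact p rose to at most 0.0608, and without WT TE 3 the centromere-side value was 0.361 points. In the shortened lists it was 0.176 points (p = 0.498) and 0 points (p = 1), both by the exact permutation test.

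Few regions at the ends separated the groups by presence. A region was called when all 4 libraries of a group held it and none of the other group did. Between TPdh-/- TM and WT TM 1 of the 818 centromere-side regions and 0 of the 654 distal regions were called, beside 0.0206% of all autosomal regions. Between TPdh-/- TM and TPdh-/- TE the counts were 2 and 0, beside 0.0188%. They were 0 and 0 between TPdh-/- TE and WT TE, beside 0.0155%, and 0 and 0 between WT TM and WT TE, beside 0.0159%. The smallest p that Fisher's exact test can give here is 0.0286, and no region passed after adjustment over all autosomal regions, where every adjusted p was 1. The numbers with an unadjusted p under 0.05 were the same 1, 2, 0 and 0 on the centromere side and 0 throughout on the distal side.

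Both called regions were in repeats. The region chr9:3030840-3031314, in an exon of Gm10717 within the chromosome 9 run, was held by the 4 TPdh-/- TM libraries, with 18, 26, 33 and 22 fragments and a fold enrichment of 2.60, 2.69, 3.6 and 2.32, and by no other library. It was called against both WT TM and TPdh-/- TE. The region chr17:3027011-3027227, with a 21-base period and between genes, was held by 4 TPdh-/- TE libraries with 32, 17, 38 and 46 fragments, by WT TE 1, 3 and 4 with 59, 57 and 78, and by no TM library of either genotype. It was called between the TPdh-/- groups.

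Levels could be compared where a region was held by all 16 libraries. The level of a region was the log2 of its summit pile-up over background coverage, set relative to the library's median over the 28 all-library regions away from the ends, and limma was run on all 48 such regions with adjustment over the 48. A region missing from any library was not tested, and this test was added after the data were seen. The median of the 28 was itself 5.783 to 6.84 log2 in WT TE and 6.747 to 8.136 in the other groups, and the levels below are relative to it.

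**Figure D5:**
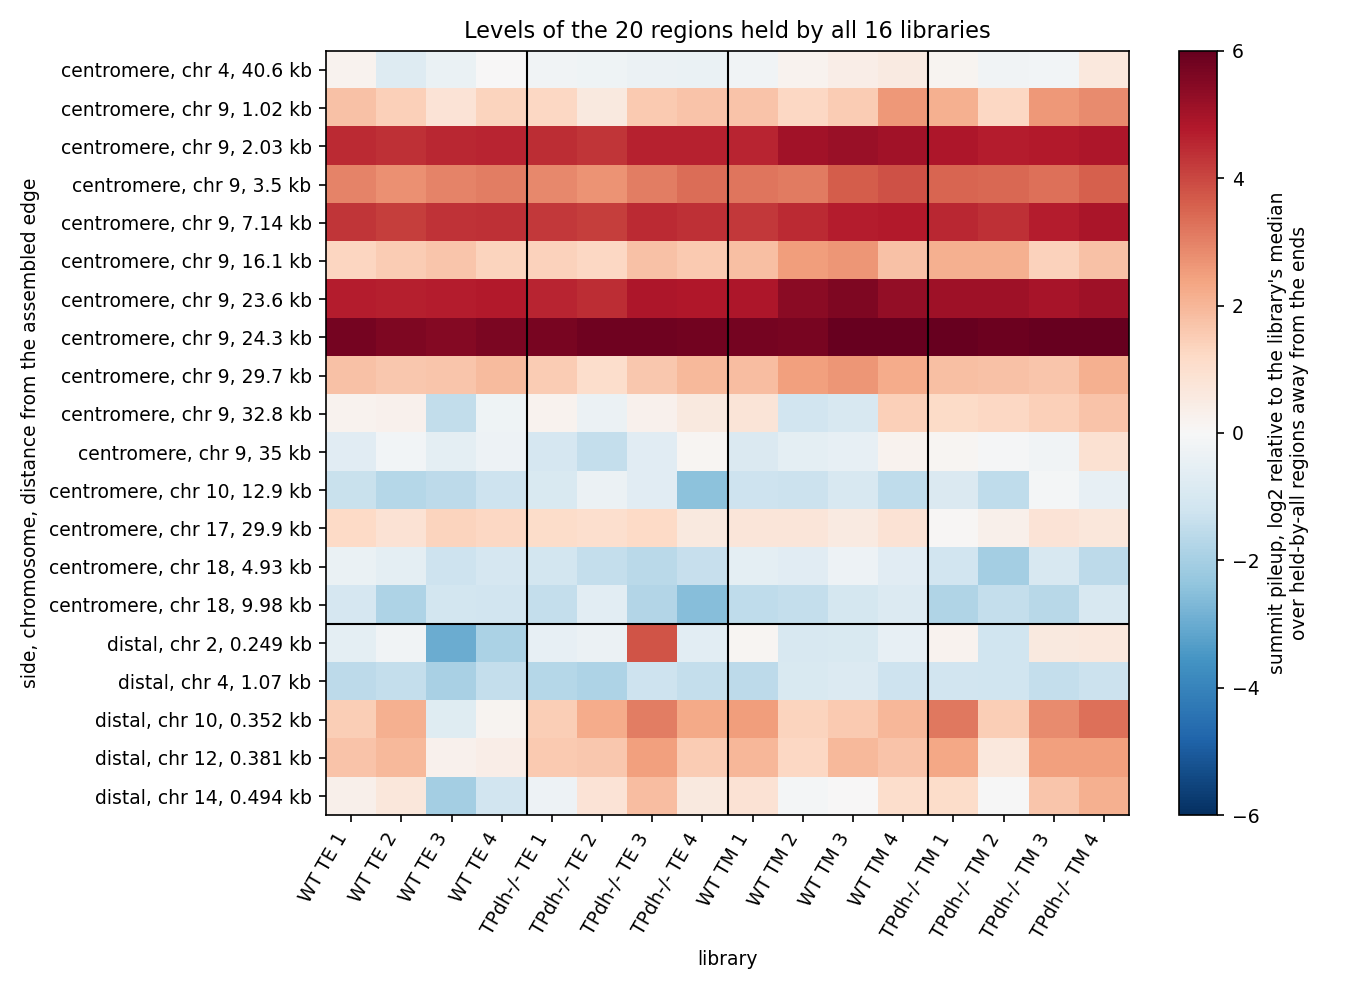
Level (colour, log2 of summit pile-up relative to the library's median over all-library regions away from the ends) of the 20 regions at the ends held by all libraries (rows, named by side, chromosome and distance from the edge) in each library (columns, split by group). The rows of chr9:3024040-3024654 (5.488 to 6.548), chr9:3023412-3023725, chr9:3001714-3002342 and chr9:3006437-3007837 stay above 4 in every column while other chromosome 9 rows fall to -1.482, and the highest distal cell is chromosome 2 in TPdh-/- TE 3 (3.795), followed by chromosome 10 in TPdh-/- TM 4 (3.319).

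Between TPdh-/- TE and WT TE, 0 of the 15 centromere-side and 0 of the 5 distal regions passed limma's test, beside 2.08% of the 48. The 5 distal regions were all higher in TPdh-/- TE, with a median difference of 1.31 log2 (0.05 to 2.01), where the 28 regions away from the ends had a median of −0.03. With fold enrichment as the level 4 of the 5 were higher, with a median of 0.48. Without WT TE 3 the distal median was 0.81 and without TPdh-/- TE 3 0.93, with 4 of 5 higher in both, as chromosome 4 turned to −0.08 and −0.05. The largest was chromosome 2, at 2.01 ± 0.83 (SE), or 0.94 ± 0.56 without TPdh-/- TE 3, and neither passed. The most significant was chromosome 10, with levels of 1.48, 2.11, −0.74 and 0.17 in WT TE and 1.47, 2.23, 3.06 and 2.29 in TPdh-/- TE, which overlapped (1.51 ± 0.55, SE, limma adjusted p = 0.138). Chromosome 14 differed by 1.31 ± 0.60 (adjusted p = 0.231 by limma) and chromosome 4, which has no TTAGGG unit, by 0.05 ± 0.20. The centromere-side median was −0.05 and turned to 0.07 without TPdh-/- TE 2 and to 0.01 without WT TE 1, and 3 distal regions and 1 centromere-side region had an unadjusted p under 0.05.

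Between WT TM and WT TE, 1 centromere-side region and no distal region passed, beside 6.25% of the 48. It was chr9:3023412-3023725, with levels of 4.69, 4.65, 4.72 and 4.76 in WT TE and 4.87, 5.43, 5.60 and 5.30 in WT TM, without overlap (0.59 ± 0.17, SE, limma adjusted p = 0.0486). The call was lost when fold enrichment served as the level, and when WT TE 1, 3 or 4, WT TM 2 or 3, TPdh-/- TE 1 or 3, or TPdh-/- TM 1, 2 or 4 was left out. The median difference was 0.38 over the 15 centromere-side regions and 0.87 over the 5 distal regions, all 5 higher in WT TM, beside −0.33 over the 28 others. Without WT TE 3 the distal median was 0.36, with all 5 still higher.

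In the comparisons of TPdh-/- TM with WT TM and with TPdh-/- TE no region of the 48 passed, 0% of them, and limma found 4 and 11 with an unadjusted p under 0.05. Of these 2 and 7 were on the centromere side and none was distal. The centromere-side medians were −0.14 and 0.37, the distal medians 0.61 and 0.29, and those of the 28 others 0.04 and −0.26. With fold enrichment as the level, all 5 distal regions were lower in TPdh-/- TM than in WT TM (median −0.14), and the medians against TPdh-/- TE were −0.04 on the distal side and −0.07 on the centromere side, so the direction depends on the level used. Leaving out 1 library in turn moved the medians of the pile-up levels. The distal one against WT TM ran from 0.42 (without TPdh-/- TM 4) to 1.02 (without TPdh-/- TM 2). The distal one against TPdh-/- TE ran from 0.13 (without TPdh-/- TE 1) to 0.62 (without TPdh-/- TM 2). The centromere-side one against WT TM ran from −0.24 (without WT TM 1) to −0.03 (without WT TM 4). The largest centromere-side difference was at chr9:3032553-3032953, at 1.36 ± 0.50 (SE) against WT TM (limma adjusted p = 0.216).

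Scaling the pile-ups to background coverage alone, without the 28 regions as a reference, gave another picture for WT TE. Then 13 of 15 centromere-side and 5 of 5 distal regions passed as higher in TPdh-/- TE than in WT TE, beside 83.3% of the 48, and 12 and 4 passed as higher in WT TM than in WT TE, beside 58.3%. The 28 regions away from the ends moved with them, with medians of 1.18 and 0.65 log2, so the count of these calls depends on the scaling. At the ends the median of these 2 comparisons turned only on the centromere side of TPdh-/- TE against WT TE (−0.05 relative to the 28 regions and 1.15 on coverage), and all 5 distal regions were higher under both scalings. The centromere-side median of TPdh-/- TM against WT TM turned as well, from −0.14 relative to the 28 regions to 0.12 on coverage. TPdh-/- TM differed from WT TM in 0 of 48 regions on this scale, 0%, and from TPdh-/- TE in 2.08%, none of them at the ends.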

How the data were processed

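ATAC-seq peak lists of 16 libraries, 4 in each of 4 groups, were used as deposited. According to its methods section, the authors cleaned the reads with Trimmomatic, mapped them to GRCm38 with BWA MEM 0.7.17, dropped reads with alternative or split alignments and reads in blacklisted regions, and called peaks per library with MACS2 2.2.7.1, with the mouse genome size and in paired-fragment mode. A cut-site offset is not given in the sources used here. Each deposited peak carries the authors' score (their −log10 q-value times 10), a fold enrichment (a ratio), −log10 values of p and q, and the summit.

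From the deposited fold enrichment and −log10 p-value the summit pile-up and local background were solved for each peak, and the pile-up was a whole number for 100% of the peaks within a relative tolerance of 0.0002. The lowest background in a library was taken as its background coverage. Gene starts came from GENCODE release 21 of the mouse and repeats from lower-case bases of the GRCm38 sequence. The period of a region was the shortest lag of 2 to 400 bp with nearly the best self-identity. Scripts ran in Python 3.11.15 (numpy 2.4.6, pandas 2.3.3, scipy 1.17.1) and R 4.3.3 (limma 3.58.1) and were tested on simulated data. Exact permutation tests were two-sided, with 0.5 added to the count of a side in density ratios. Regions were named when among the 10 held by the most libraries on a side, when they separated 2 groups, or when highest in fold enrichment. Further regions held by 8 or more libraries were named after their values were seen. The regions, gene lists and measures were chosen with earlier results of these data known, and the level test was added after the data were seen. Peaks outside the autosomes were left out. Depth in reads was not analysed here. Some items are not reported here.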

Additional observations from a re-analysis of the deposited data

Results flagged for a closer look

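The genotype difference in the share of peaks differed between TM and TE, by 0.664 points on the centromere side and by 0.2665 points on the distal side, as tested in the report. In lists of equal length these were 0.176 and 0 points.

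In groups of 4 libraries, a value was also picked out when its gap to the nearest other library was large for the group's range (Dixon's test at 95%). This was applied to 24 combinations of a group and a summary measure, and chance picks out about 1 in 20 of such groups. It picked TPdh-/- TM 2 for its centromere-side share of 0.2074% and its log2 density ratio of -0.07135, the lowest of that group, in the library with the longest list. The same was applied to 80 combinations of a group and an all-library region, which gave 4. These were a level of 3.795 at the distal edge of chromosome 2 in TPdh-/- TE 3, levels at the distal edge of chromosome 12 of 2.477 in TPdh-/- TE 3 and 0.6112 in TPdh-/- TM 2, and a level of 4.947 at chr9:3023412-3023725 in TPdh-/- TM 3. TPdh-/- TE 3 was thus the highest of its group at both distal edges, and it was also the highest at those of chromosomes 4, 10 and 14.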

How the results depend on the processing

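Of 478 alternative values 375 kept their direction and their side of the threshold or stayed within 1.5 times of a count, and 13 changed direction. With background coverage as a covariate, the centromere-side differences became 0.09499 (TPdh-/- TM against WT TM), 0.09137 (TPdh-/- TE against WT TE) and 0.327 points (WT TM against WT TE), and the distal ones 0.04226 and 0.04993 points for the last 2 comparisons. In lists of equal length, the centromere-side difference between TPdh-/- TM and TPdh-/- TE was -0.1652, and the distal ones were -0.09912 (TPdh-/- TE against WT TE), -0.06608 (WT TM against WT TE) and -0.06608 (TPdh-/- TM against TPdh-/- TE), none past 0.05. The differences of genotype effects were then 0.1762 and 0. With a −log10 q of at least 5, TPdh-/- TM against TPdh-/- TE gave -0.133 (centromere side) and -0.1108 (distal), and WT TM against WT TE -0.14 (distal). With a fold enrichment of at least 5, TPdh-/- TM against TPdh-/- TE gave 0.02116 and -0.0007025. With windows of 1 Mb, WT TM against WT TE gave -0.8547 and TPdh-/- TM against TPdh-/- TE -0.02038 (centromere side), TPdh-/- TM against WT TM 0.02111 (distal), and the centromere-side log2 density ratio 0.2758 (exact permutation p = 0.0605). Without the autosome with most regions, the distal TPdh-/- TM against WT TM difference was 0.0004194 and the centromere-side fold enrichment difference 0.1075 (exact permutation p = 0.000122). Outside WT TE the latter was 0.06467 and the distal log2 density ratio 0.09687. The cause of these changes was not tested.

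With the replicate block the share differences of -0.7839, -0.02322 (centromere side), -0.2691 and -0.2482 (distal) had an exact permutation p of 0.125, the smallest 4 pairs allow, and no centromere-side level passed between WT TM and WT TE (0). Samples of the same number did not deviate together in most pairs (correlations over 48 regions above 0.1 in 2, 0, 2 and 1 of 4 pairs). The correlations ran from -0.626 to 0.697. They cannot show whether samples of the same number share a mouse or culture, which the labels do not say.

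Counts of separating regions on the centromere side were 0 (TPdh-/- TM against WT TM), 1, 2 and 1 in lists of equal length in the order TM, TE, WT and TPdh-/-, and 2 (1 distal) between TPdh-/- TM and WT TM when a peak had to cover 50% of the region. Scaling to background coverage gave 13 and 12 (centromere side) and 5 and 4 (distal) called levels for TPdh-/- TE and WT TM against WT TE, and fold enrichment as the level gave 0. Leaving out each library in turn moved the centromere-side shares within -0.1637 to -0.06014, -0.9905 to -0.481, -0.8938 to -0.3844 and -0.02696 to -0.01805 (same order) and the distal ones within -0.01028 to 0.004058 (0.000628 without WT TM 1), -0.3373 to -0.188, -0.3164 to -0.1671 and 0.01066 (without TPdh-/- TM 3) to 0.02521. It moved the centromere-side difference of genotype effects within 0.3612 to 0.8706, the separating counts within 1 to 3, 0 to 1, 0 to 2 and 2 to 4 (centromere side) and 0 to 2, 0 to 2, 0 to 1 and 0 to 2 (distal), and called levels within 0 to 4 (centromere side) and 0 to 1 (distal). The 4 called levels came without WT TM 1, and 3 without TPdh-/- TE 4. Separating counts of 3 and 4 came without TPdh-/- TM 1. The distal counts of 2 came without TPdh-/- TE 3 (TE), TPdh-/- TM 2 (TM), and TPdh-/- TM 1, TPdh-/- TM 2 or TPdh-/- TE 4 (TPdh-/- groups), and the 1 called distal level without WT TE 2 or WT TM 1. Peaks of few fragments and fold enrichment over a high local background limit what depth can show at repeats.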
